A study of Mus musculus with 4 samples.

Results

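The 32 genes described here encode the contractile apparatus of smooth muscle and the structures that anchor it to the cell surface. They were taken by gene symbol, as a list of known smooth muscle genes, from the probes of 4 microarrays made with total RNA of whole mouse colon. The list was chosen with earlier results of these data known, so its counts beside those of all genes describe it and do not test it. All 32 were on the array, and all 32 were well above background on 4 of 4 arrays, among 19325 genes that passed the same filter on at least 2 arrays. The tested mice carried floxed Junb together with Cd4-Cre (Junb fl/fl Cd4-Cre, called mutants, n = 2). The controls carried the same floxed Junb with no Cre named in their labels (Junb fl/fl, n = 2). Both groups were of the C57BL/6 strain, and both were sampled on day 5 of dextran sulfate sodium (DSS) in the drinking water, a chemical that injures the colon epithelium and causes colitis. Cd4-Cre acts in cells of the T lineage, so the deletion was not directed at smooth muscle. No colon without DSS was analysed here, and the labels give neither age nor sex. They do not say in words that each sample was a separate animal, so the tests measure the spread between these samples.

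The muscle coat of the colon is made of circular and longitudinal smooth muscle, with further smooth muscle in the muscularis mucosae and around vessels. Contraction starts when calcium enters the cytoplasm and calmodulin activates myosin light chain kinase, which phosphorylates the regulatory light chain so that myosin pulls on actin, while myosin phosphatase reverses the step. Thin filaments insert into dense bodies in the cytoplasm and dense plaques at the membrane, which carry the force to the neighbouring cells and matrix. Many of these genes are activated by serum response factor with its coactivator myocardin, through a DNA element called the CArG box.

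The arrays were alike in depth of signal. The 75th percentile of the processed intensity was 311 and 269 in the mutants and 330.0 and 329 in the controls, no spot was saturated, and Pearson's r between arrays over the genes tested was 0.976 to 0.984. All 4 arrays lay on 1 slide and carried the same scan. Xist and Eif2s3y placed the replicate 1 array of each group with females and the replicate 2 array with males, so differences are also given within the female pair (replicate 1) and the male pair (replicate 2). Junb itself, which most colon cells keep, read 4.44 and 4.47 in the mutants and 4.23 and 4.39 in the controls, a difference of 0.15 ± 0.11 (SE), so the deletion could not be checked in this tissue.

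Signals are given as log2 of the processed intensity relative to the array's 75th percentile, where 0 is the signal at that percentile, and every difference subtracts the control mean of a gene from its mutant mean. They compare a gene with itself, since probes differ in brightness. On this scale 31 of the 32 smooth muscle genes were lower in the mutants and 1, Ldb3, was higher. The median difference was -0.50, which is 1.41-fold lower, against 0.02 over all genes tested. Most of the genes lay in a narrow band, with 21 of 32 between -0.7 and -0.4. The largest differences were those of Casq2 and Fhl1, at -0.98 each. In bulk tissue, fewer smooth muscle cells and less of these RNAs in each cell cannot be told apart.

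No single gene passed the test across the array in the fit without a block. With limma's moderated test and Benjamini-Hochberg adjustment over all 19325 genes, 0 members and 0.0% of all genes had an adjusted p under 0.05, and the members' adjusted p ran between 0.417 and 0.737. With the replicate number, which here goes with sex, as a block, 1 member (Fhl1) and 46 genes in all had an adjusted p under 0.05. Before adjustment, 22 members were lower at p under 0.05, where 3.98% of all genes were lower by the same rule. No member was higher at that threshold, where 5.31% of all genes were. Both mutants lay under both controls for 30 of 32 members, where 17.6% of all genes did so. Both mutants lay over both controls for Ldb3 alone among the members, where 25.7% of all genes did so. Only Lpp overlapped between the groups.

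Both mutants lay under both controls by more than the spread inside either group for 20 of the 32 genes, where 5.59% of all genes did so. The median distance between replicates was 0.10 in the mutants and 0.18 in the controls. The median of the 32 signals was 2.60 and 2.66 in the mutants, against 2.98 and 3.18 in the controls. Control replicate 2 was the higher control for 25 genes, and mutant replicate 2 the higher mutant for 24. The female pair had a median difference of -0.47 and the male pair one of -0.53, against -0.01 and 0.04 over all genes. A lower signal in both pairs was found for 30 of the 32 genes. The female pair had the more negative difference for 14 genes and the male pair for 18.

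**Figure D1:**
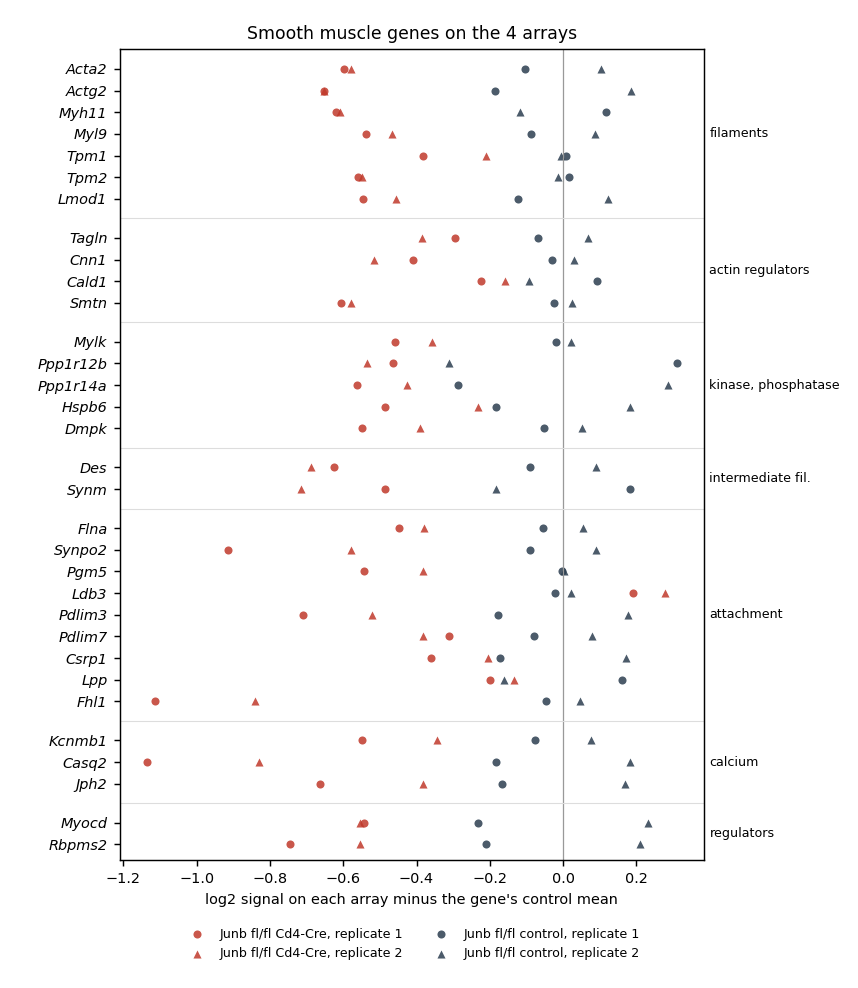
Signal of each of the 32 smooth muscle genes on each of the 4 arrays, relative to the mean of the 2 controls (log2 scale), with mutants in red, controls in dark blue, replicate 1 as circles, replicate 2 as triangles and genes grouped by role. Both mutant values lie under both control values for 30 genes, Ldb3 lies above, and Lpp overlaps.

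**Figure D2:**
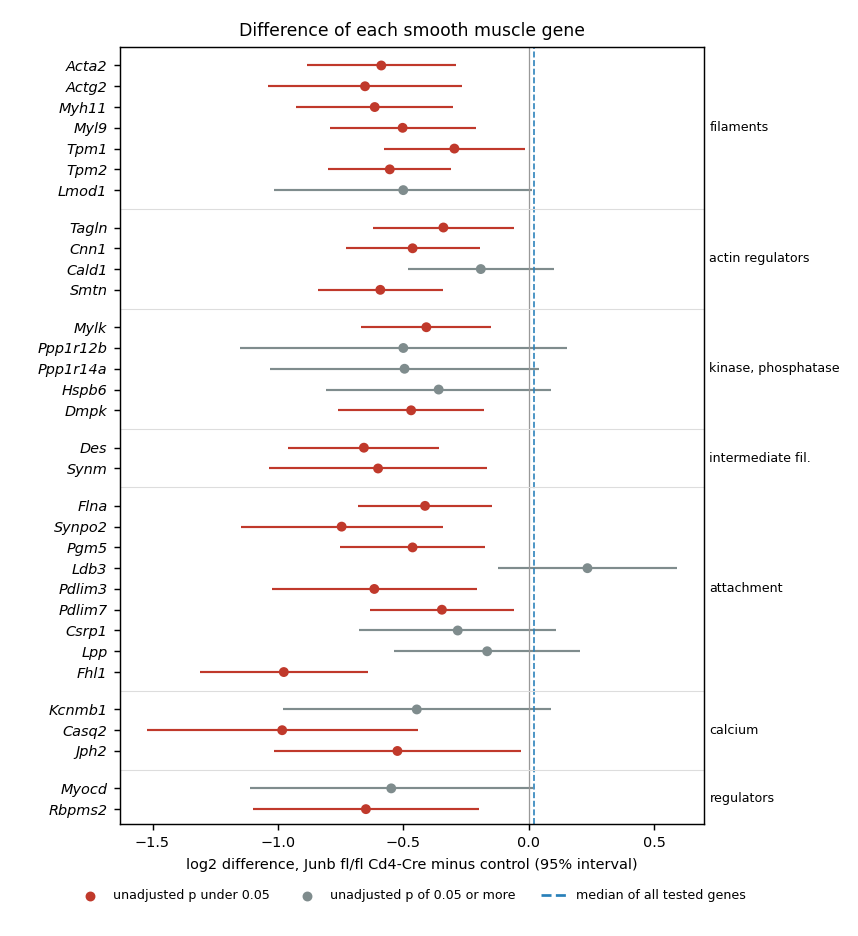
Difference of each smooth muscle gene, mutant minus control, on the log2 scale, with its 95% confidence interval from limma, in red where the unadjusted p is under 0.05 and in grey elsewhere, and with the median of all tested genes as a dashed line. The 32 values range between -0.98 (Casq2) and 0.23 (Ldb3), and 31 lie below 0.

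All 7 filament genes were lower in the mutants, 6 of them at an unadjusted p under 0.05, with a median difference of -0.55. Acta2, the alpha actin of smooth muscle, read 6.03 and 6.05 in the mutants, against 6.53 and 6.73 in the controls. The difference was -0.59 ± 0.12 (SE), or 1.5-fold lower, and the groups did not overlap. Actg2, the gamma actin that predominates in gut muscle, read 3.62 and 3.62 in the mutants, against 4.09 and 4.46 in the controls, a difference of -0.65 ± 0.15. The mutants were nearly equal for this gene, and the male pair differed by more than the female pair, at -0.84 against -0.47. The members of the actin family have near-identical coding sequences, and hybridisation of one actin's RNA to another's probe was not tested.

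Myh11, the heavy chain of smooth muscle myosin and a specific marker of this cell type, read 2.84 and 2.85 in the mutants, against 3.58 and 3.34 in the controls. It was 1.53-fold lower, with the wider gap in the female pair, at -0.74 against -0.49 in the male pair. Myl9, the regulatory light chain that the kinase phosphorylates, read 6.40 and 6.47 in the mutants and 6.85 and 7.03 in the controls, a difference of -0.50 ± 0.11. Tropomyosins lie along the actin filament. Tpm2 read 4.31 and 4.32 in the mutants, against 4.89 and 4.86 in the controls, so that replicates differed by at most 0.03 and the groups by -0.55. Tpm1 had a smaller difference of -0.30 ± 0.11, with 3.62 and 3.79 in the mutants against 4.01 and 3.99 in the controls. Lmod1, a leiomodin that nucleates actin filaments, was a dim probe at -2.39 and -2.30 in the mutants, against -1.96 and -1.72 in the controls. Its difference of -0.50 ± 0.20 was as large as that of Myl9 but did not pass the unadjusted threshold.

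CArG boxes were searched in the promoter windows that RefSeq gives for build GRCm38.p6, each running 250 bases before to 50 after a gene start. A window was found for 28 of the 32 genes. Actg2, Myh11, Tagln and Myocd had none, so they were not searched. The exact box, a run of A or T between CC and GG searched on both strands, was in 4 of 36 member windows (11.1%), belonging to Myl9, Fhl1 and Ldb3, and in 1.63% of all 32851 windows. With 1 G or C allowed inside the run, a box was in 11 of 36 member windows (30.6%), belonging to 9 genes, against 9.98% of all windows. Windows of a gene can share a box, as the 2 of Ldb3 do. By gene, 3 of 28 members held the exact box, against 1.81% of all genes. With 1 G or C allowed, 9 of 28 held a box, against 11.3%. A match describes the letters and does not show that a factor binds there. The stretches below show the boxes in capitals, 5′ to 3′ on the gene's strand, for 2 filament genes, for the attachment gene with the largest difference and for the one gene that was higher. In Acta2 (chr19:34255378-34255477, minus strand) both boxes hold 1 G or C and begin at positions -84 and -34 from the gene start. In Myl9 (chr2:156775283-156775394, plus strand) the exact box begins at -161 and the box with 1 G or C at -99. In Fhl1 (chrX:56779561-56779610, plus strand) the exact box begins at -102. In Ldb3 (chr14:34588687-34588736, minus strand) 1 exact box begins at -35 or -109, depending on which of 2 starts is counted.
Acta2: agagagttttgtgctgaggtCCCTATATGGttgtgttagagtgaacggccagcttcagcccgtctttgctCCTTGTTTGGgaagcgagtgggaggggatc
Myl9: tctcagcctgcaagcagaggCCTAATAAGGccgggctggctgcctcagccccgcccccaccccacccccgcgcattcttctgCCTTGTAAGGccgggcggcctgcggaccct
Fhl1: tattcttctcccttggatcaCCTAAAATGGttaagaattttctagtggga
Ldb3: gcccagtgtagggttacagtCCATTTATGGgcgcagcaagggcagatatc

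The genes that hold an exact box thus include Fhl1, which was 1.97-fold lower, and Ldb3, which was 1.18-fold higher in the mutants.

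All 4 actin-binding regulators were lower, 3 of them at an unadjusted p under 0.05, with a median of -0.40. Smtn encodes smoothelin, a marker of fully contractile smooth muscle. It read 3.73 and 3.76 in the mutants, against 4.31 and 4.36 in the controls, and its difference of -0.59 ± 0.10 was nearly the same in the female pair (-0.58) and the male pair (-0.60). Cnn1, or calponin, slows the actomyosin ATPase. It read 6.41 and 6.30 in the mutants and 6.79 and 6.85 in the controls, 1.38-fold lower. Tagln, known as SM22 and an early marker of the lineage, was less far apart, with 6.75 and 6.66 in the mutants against 6.98 and 7.11 in the controls, a difference of -0.34 ± 0.11. Cald1 encodes caldesmon, which other cells also make in a shorter form. It read 3.90 and 3.97 in the mutants, against 4.22 and 4.03 in the controls, and its difference of -0.19 ± 0.11 did not pass even the unadjusted threshold.

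The 5 genes grouped with the myosin kinase and phosphatase were also all lower, with a median of -0.47, but only Mylk and Dmpk were lower at an unadjusted p under 0.05. Mylk, the kinase that starts contraction, read 4.28 and 4.38 in the mutants and 4.72 and 4.76 in the controls, a difference of -0.41 ± 0.10. Dmpk, the kinase mutated in myotonic dystrophy, read 2.87 and 3.03 in the mutants and 3.37 and 3.47 in the controls, 1.38-fold lower. The phosphatase side of the switch was more variable. Ppp1r12b, a targeting subunit of myosin phosphatase, read -1.81 and -1.88 in the mutants, against -1.03 and -1.65 in the controls, and without control replicate 1 its difference of -0.50 shrank to -0.19. That probe is annotated to a non-coding transcript variant of the gene, and the probe of its coding variant was well above background on 0 of 4 arrays. Ppp1r14a, or CPI-17, inhibits that phosphatase. It read 1.87 and 2.01 in the mutants and 2.15 and 2.72 in the controls, and without control replicate 2 its difference of -0.50 became -0.21. Hspb6, a small heat shock protein involved in relaxation, read 1.07 and 1.33 in the mutants, against 1.38 and 1.74 in the controls. Its mutant and control ranges nearly touched, with 0.05 between the closest arrays.

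Both intermediate filament genes were lower at an unadjusted p under 0.05. Des encodes desmin, the main intermediate filament of muscle. It read 2.01 and 1.94 in the mutants, against 2.54 and 2.72 in the controls, a difference of -0.66 ± 0.12, or 1.58-fold lower. Synm, or synemin, links desmin to attachment sites and read 1.81 and 1.58 in the mutants, against 2.48 and 2.11 in the controls, 1.52-fold lower.

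Of the 9 attachment genes, 8 were lower and 1 higher, and 6 were lower at an unadjusted p under 0.05. The median was -0.41 and the spread among them was the widest of any role. Fhl1, a protein built of LIM domains that is abundant in muscle, had the smallest p of all 32 genes and stood 24th among all genes tested. It read 4.02 and 4.30 in the mutants, against 5.09 and 5.18 in the controls, a difference of -0.98 with a 95% interval of -1.31 to -0.64. The lowest control lay 0.79 above the highest mutant. Its adjusted p was 0.417 without a block and 0.0474 with the replicate number as a block (limma). Its probe maps to chrX:54046422-54046481 in build mm9.

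Synpo2, an actin bundling protein of dense bodies, read 1.40 and 1.74 in the mutants, against 2.23 and 2.41 in the controls, a difference of -0.75 ± 0.16, or 1.68-fold lower. Pdlim3 and Pdlim7 encode adaptors with PDZ and LIM domains. Pdlim3 read 2.57 and 2.76 in the mutants and 3.10 and 3.45 in the controls, 1.53-fold lower. Pdlim7 was closer, with 2.63 and 2.56 in the mutants against 2.86 and 3.02 in the controls. Flna, the filamin that crosslinks actin under the membrane, read 5.28 and 5.35 in the mutants and 5.68 and 5.78 in the controls, a difference of -0.41 ± 0.10. Pgm5 belongs to the phosphoglucomutase family but sits at dense plaques. It read 2.11 and 2.27 in the mutants, against 2.65 and 2.65 in the controls, a difference of -0.46 ± 0.11.

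The other attachment genes did not follow as closely. Csrp1, a protein with LIM domains that binds actin-associated proteins, read 6.59 and 6.75 in the mutants and 6.78 and 7.12 in the controls, with only 0.03 between the closest arrays. Lpp, a partner of zyxin-type adhesion proteins, read 2.05 and 2.11 in the mutants, against 2.41 and 2.08 in the controls, so the groups overlapped. Ldb3, also called Cypher or ZASP and best known from the Z disc of striated muscle, read -0.59 and -0.50 in the mutants, against -0.80 and -0.76 in the controls. It was higher in both mutants, by 0.23 ± 0.14, and its 95% interval of -0.12 to 0.59 included 0.

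The 3 calcium and excitation genes were all lower, Casq2 and Jph2 at an unadjusted p under 0.05. Casq2 encodes a calsequestrin that stores calcium in the sarcoplasmic reticulum. It read -1.84 and -1.53 in the mutants, against -0.88 and -0.52 in the controls, 1.98-fold lower, with similar differences in the female pair (-0.95) and the male pair (-1.01). Jph2, a junctophilin that ties the reticulum to the plasma membrane, read -1.02 and -0.73 in the mutants and -0.52 and -0.18 in the controls, a difference of -0.52 ± 0.19. Kcnmb1, the beta subunit of the calcium-activated potassium channel that relaxes smooth muscle, was dim at -2.62 and -2.41 in the mutants, against -2.14 and -1.99 in the controls. Its groups were separated, but its difference of -0.45 ± 0.21 did not pass the unadjusted threshold.

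The 2 regulators on the list were lower as well. Myocd, or myocardin, read -1.96 and -1.97 in the mutants, against -1.65 and -1.18 in the controls. Its difference of -0.55 ± 0.22 lay near those of the filament genes but missed the unadjusted threshold, with the female pair at -0.31 and the male pair at -0.78. Rbpms2, an RNA-binding protein of visceral smooth muscle, read 1.80 and 1.99 in the mutants and 2.33 and 2.75 in the controls, 1.57-fold lower.

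With 2 arrays in a group, single arrays weighed on the smaller differences. Leaving out each array in turn, 9 genes stayed at an unadjusted p under 0.05 every time: Acta2, Actg2, Myh11, Tpm2, Smtn, Des, Synpo2, Fhl1 and Casq2. The other 13 lost it at least once. Without mutant replicate 1, 11 genes did so (Myl9, Tpm1, Tagln, Mylk, Dmpk, Flna, Pgm5, Pdlim3, Pdlim7, Jph2 and Rbpms2), at differences of -0.55 to -0.21. Without mutant replicate 2, Tpm1, Tagln, Cnn1, Synm and Pdlim7 did so. Without control replicate 1, Tpm1 and Synm did so. Without control replicate 2, Tpm1, Tagln, Pdlim7 and Jph2 did so. All 31 lower genes stayed below 0 in each of these fits. The size of 7 differences moved by over 1.5 times. Without control replicate 1, Cald1 came to -0.10, Ppp1r12b to -0.19 and Lpp to -0.00, while Ppp1r14a came to -0.78, Hspb6 to -0.54, Csrp1 to -0.46 and Myocd to -0.78. Without control replicate 2 these values were -0.28 for Cald1, -0.81 for Ppp1r12b, -0.33 for Lpp, -0.21 for Ppp1r14a, -0.18 for Hspb6, -0.11 for Csrp1 and -0.32 for Myocd.

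Many of the genes had further probes that were not used above. Of 76 member probes, 67 passed the filter, and 20 of the 32 genes had more than 1 that did. The probes of a gene measure the same RNA extracts, so they repeat the hybridisation and not the animals. Of the 35 passing probes that did not stand for their gene, 33 had a lower and 2 a higher mean in the mutants, with a median difference of -0.43. Of the 35, 25 were lower in both mutants than in both controls. The share of such probes over all genes was not computed, so this count has no background beside it.

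Size differed between probes of a gene more than sign did. The 4 probes of Acta2 gave -0.93, -0.61, -0.59 and -0.24. The probe at -0.93 was near the floor and well above background on 2 of 4 arrays. It read -4.06 and -4.65 in the mutants, against -3.10 and -3.76 in the controls. On mutant array 2 the lowest signal well above background was -4.25, so the size of that difference is uncertain. This probe is counted among the lower probes above. Those of Myh11 gave -0.76, -0.74, -0.61 and -0.55. The Tpm2 probes gave -1.11 and -0.55. In Cald1 alone, passing probes disagreed in sign, at -0.40, -0.19, -0.10 and 0.01. The 6 Lpp probes lay between -0.26 and -0.00. Both Ldb3 probes were higher in the mutants, by 0.27 and 0.23, so that the opposite direction of this gene did not rest on a single probe. The Ldb3 probe at 0.27 was dim and well above background on 3 of 4 arrays.

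**Figure D3:**
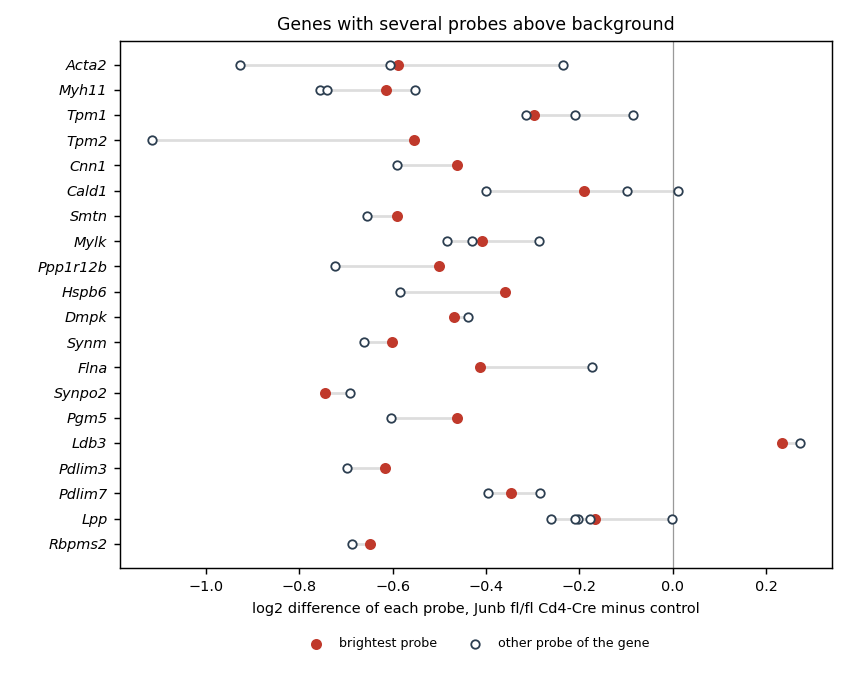
Difference, mutant minus control on the log2 scale, of each passing probe of the 20 smooth muscle genes that have more than 1, with the probe that stands for the gene marked apart from the others. Probes of a gene lie on the same side of 0 except in Cald1, and both Ldb3 probes lie above 0.

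For 14 of the 32 genes a close relative, from genes listed as used outside muscle, was compared, which gives a comparison within each array. The pairs were chosen by hand, and use of the relatives in smooth muscle itself was not tested. In 17 comparisons of a smooth muscle gene with a relative, the smooth muscle gene had the lower difference in all 17. The median of the 17 gaps was -0.56, in a range of -0.94 to -0.12. The ratio of the signals was lower in both mutants than in both controls for 15 of the 17, the exceptions being Myh11 over Myh10 and Pdlim7 over Pdlim5. The share of such ratios over all genes was not computed. Each smooth muscle gene compared was itself lower in both mutants than in both controls, so this count largely repeats that separation. Myh11, Myl9 and Cnn1 each entered 2 comparisons, so the 17 are not independent. Lpp, the one gene that overlapped between the groups, was not among them, nor was Ppp1r12b. Their relatives Zyx and Ppp1r12a were tested and differed by -0.02 and -0.14, against -0.17 for Lpp and -0.50 for Ppp1r12b. With 2 arrays against 2, the smallest two-sided p that an exact permutation test can give is 0.333, so no such test was made.

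Acta2 differed by -0.59 where the cytoplasmic actin Actb differed by 0.13, and Actg2 by -0.65 where Actg1 differed by 0.09. Myh11 differed by -0.61 where the non-muscle myosin Myh9 differed by 0.05, while the other non-muscle myosin, Myh10, was itself lower at -0.44. Tpm1 and Tpm2 differed by -0.30 and -0.55, against 0.23 for Tpm3 and 0.10 for Tpm4. Ppp1r14a, at -0.50, was farthest from its relative Ppp1r14b, at 0.44. Des differed by -0.66 where vimentin (Vim), the intermediate filament of mesenchymal cells, differed by -0.10. Of all 20 tested genes listed as used outside muscle, 15 were higher and 5 lower, with a median of 0.06. The direction of that median turned under 2 other scalings, to -0.07 with quantile normalization and -0.13 when arrays were scaled to housekeeping genes. The gap between a smooth muscle gene and its relative on the same arrays does not depend on the percentile chosen. A ratio of this kind shows unequal change and not that the relative stayed the same.

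**Figure D4:**
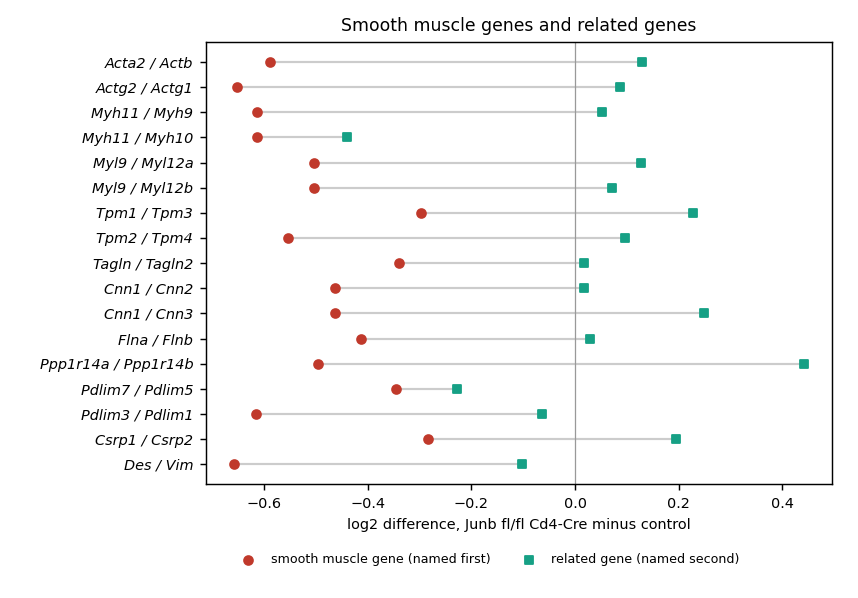
Difference, mutant minus control on the log2 scale, of smooth muscle genes and of the relatives they were compared with, joined by a line in each of 17 comparisons. Every smooth muscle gene lies below its relative, with the narrowest gap at -0.12 for Pdlim7 and Pdlim5.

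Other genes of the smooth muscle programme were counted by the same fit. Of 24 further excitation and signalling genes tested, 20 were lower and 4 higher, 5 of them lower and none higher at an unadjusted p under 0.05, with a median of -0.33. With normexp background correction 18 were lower and 6 higher, with a median of -0.17. Among them, the calcium release channel Itpr1 read 0.79 and 0.80 in the mutants, against 1.45 and 1.24 in the controls, a difference of -0.55 ± 0.13. Cacna1c, the L-type calcium channel through which calcium enters, differed by -0.53 ± 0.13. Gucy1a3, a subunit of the nitric oxide receptor, differed by -0.62 ± 0.15, and its downstream partner Mrvi1 by -0.55 ± 0.14. Each of these 4, named for the smallest p in their list, had both mutants under both controls. In the whole list of 24, 13 were lower and 2 higher without overlap, where 17.6% and 25.7% of all genes were.

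Of 25 further genes of attachment, costameres and caveolae, 20 were lower and 5 higher, 8 of them lower and none higher at an unadjusted p under 0.05, with a median of -0.25. The focal adhesion protein Tns1 read 3.04 and 3.28 in the mutants, against 3.64 and 3.84 in the controls. Svil, or supervillin, differed by -0.48 ± 0.12, the caveola protein Sdpr by -0.57 ± 0.14 and sarcospan (Sspn) by -0.52 ± 0.13. Of 19 tested genes for serum response factor, its partners and other regulators of smooth muscle fate, 14 were lower and 5 higher, with a median of -0.09 (-0.17 with quantile normalization). Of these, 3 were lower at an unadjusted p under 0.05: Meis1 at -0.64 ± 0.21, Tgfb1i1, an adaptor of focal adhesions, at -0.49 ± 0.14, and Heyl. Heyl, a target of Notch signalling, was not well above background in either mutant and was at least 1.44-fold lower, with measured means of -5.24 in the mutants and -3.66 in the controls (adjusted p = 0.418 with limma). That bound sets the control mean against the lowest signal well above background on each mutant array. Heyl passed the filter through the 2 controls alone, so its lower direction follows from the filter and its call is no support. Srf itself differed by -0.14.

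Lists for other cells of the colon wall moved to different degrees beside the smooth muscle genes, and their part in the result was not tested. The summed signal of the 32 smooth muscle genes, in multiples of the 75th percentile, was 643 and 660 in the mutants against 848 and 940 in the controls. All 6 markers of interstitial cells of Cajal, the pacemaker cells of gut muscle, were lower (1 at an unadjusted p under 0.05), with a median of -0.45. Their summed signal was 22.1 and 13.3 in the mutants and 31.8 and 20.9 in the controls. Of 11 tested markers of enteric neurons and glia, 9 were lower, 2 of them at that threshold, with a median of -0.31 (-0.14 with normexp). Their sums were 12.8 and 17.1 in the mutants against 17.3 and 18.3 in the controls. Endothelial markers had a median of -0.36 (-0.21 with normexp) with 8 of 8 lower, and fibroblast markers -0.28 with 10 of 10 lower, with 0 and 1 lower at that threshold. The sums of both lists overlapped between the groups, at 7.95 and 13.4 in the mutants against 9.33 and 15.6 in the controls for endothelium, and 103 and 129 in the mutants against 104 and 165 in the controls for fibroblasts.

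Markers of pericytes, which share many genes with smooth muscle, had a median of -0.03, with 6 of 10 lower and sums of 28.9 and 37.6 in the mutants against 31.2 and 36.7 in the controls, and the median turned to 0.02 with quantile normalization or normexp background correction. For leukocytes the median was -0.10 (-0.15 with quantile normalization), with 6 of 8 lower and sums of 71.9 and 90.4 in the mutants against 73.3 and 93.3 in the controls. For epithelium the median was 0.07 (-0.13 under quantile or housekeeping scaling), with 5 of 12 lower and sums of 1562 and 1712 in the mutants against 1594 and 1594 in the controls. For tissue at the outer face of the colon, the adipocyte list differed more than the mesothelial list. Of 6 tested adipocyte markers, 5 were lower, 4 at an unadjusted p under 0.05, with a median of -1.39 (-0.87 with normexp). Their sums were 6.87 and 9.70 in the mutants against 20.1 and 17.8 in the controls. Adipoq, among these 4, was well above background in 1 of 2 mutants. The 4 mesothelial markers tested were lower, 1 at an unadjusted p under 0.05, with a median of -0.36 (-0.11 with normexp, where 3 were lower and 1 higher) and sums of 1.35 and 1.25 in the mutants against 1.56 and 1.51 in the controls. The mesothelial marker Upk3b was not well above background in either mutant, and was at least 1.58-fold lower by the kind of bound used for Heyl. It too passed the filter through the 2 controls alone, so its lower direction follows from the filter.

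Genes of skeletal and cardiac muscle, some of which smooth muscle also uses, were counted apart. Of 20 listed, 10 were tested, and 8 of these were lower, 4 at an unadjusted p under 0.05, with a median of -0.53. With normexp 6 were lower and 4 higher, with a median of -0.24. Their sums were 12 and 8.41 in the mutants against 17.0 and 13.1 in the controls. The 4 were Actc1 (-0.71 ± 0.11), Actn2 (-0.99 ± 0.24), Ckm (-0.97 ± 0.31) and Acta1 (-0.56 ± 0.20), of which Ckm was well above background in 1 of 2 mutants. The striated myosin heavy chains Myh1, Myh4, Myh6 and Myh7 were well above background on 0 of 4 arrays, as were Mb, Actn3 and Myl2, while Myh2, Tnnc2 and Ttn were well above it on 1 array.

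Genes that read position along the colon, blood content and scaling were counted as well. Of 7 distal Hox genes tested, which mark the end nearest the anus, 5 were lower and 2 higher, 1 of them lower at an unadjusted p under 0.05. Without overlap, 1 was lower and 1 (Hoxa11) higher, where 17.6% and 25.7% of all genes were. The median of the 7 was -0.59 (-0.20 with normexp), with the female pair at -0.10 and the male pair at -0.79. The sums of the 7 were 30.9 and 8.66 in the mutants against 36.9 and 17.9 in the controls. All 5 tested haemoglobin genes were lower, 3 at that threshold, with a median of -1.25 and sums of 17.4 and 37.5 in the mutants against 45.3 and 82.7 in the controls. All 10 housekeeping genes were higher, with a median of 0.21, and 7 of 10 were with quantile normalization, with a median of 0.07. The part of these genes in the smooth muscle result was not tested.

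**Figure D5:**
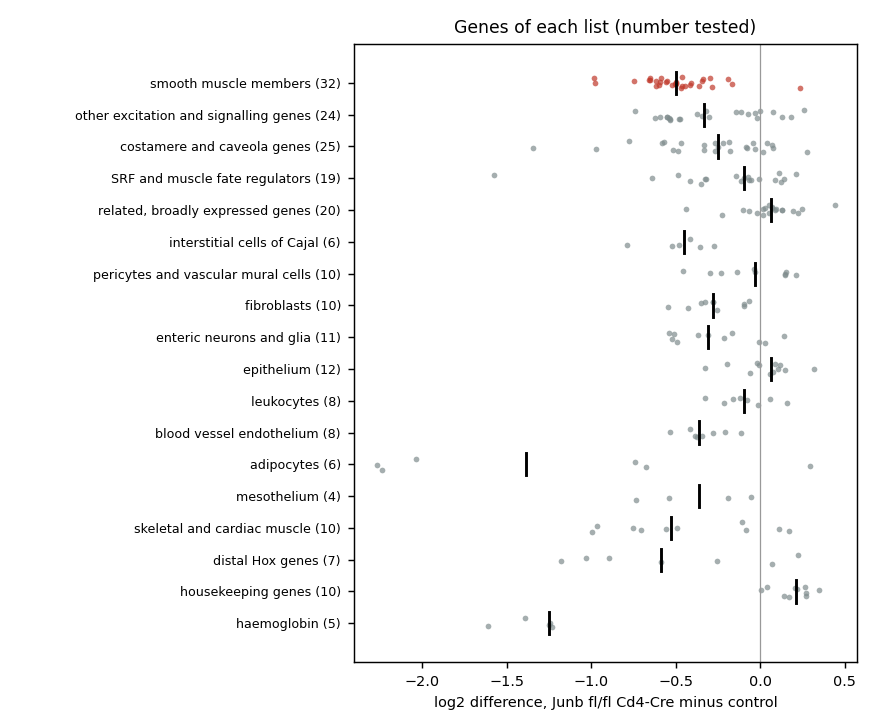
Differences, mutant minus control on the log2 scale, of every tested gene in each list, as points with the median of the list as a bar, with the smooth muscle genes first and the other lists after them. The smooth muscle genes have a median of -0.50, against -0.36 for endothelium, -0.28 for fibroblasts and -1.39 for adipocytes. The nearest medians are -0.45 for interstitial cells of Cajal, -0.53 for skeletal and cardiac muscle and -0.59 for distal Hox genes.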

How the data were processed

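Whole-colon RNA was hybridised to 4 one-colour (Cy3) Agilent arrays. The deposited scanner output holds processed signal intensity, which the authors took from Agilent Feature Extraction (version 11.5.1.1 in the submitters' processing notes) with background already subtracted, per the file headers. The log2 values were computed from the deposited intensities. Probe coordinates are those of the deposited files, on mm9. Each array has 62976 spots, of which 59305 are not controls.

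Intensities were divided by the array's 75th percentile and taken to log2. Spots of a probe were averaged without outlier spots (56605 probes). Probes had to be well above background on at least 2 arrays, and the probe with the highest mean stood for its gene. Mutants and controls were compared with limma 3.58.1 (R 4.3.3), with an intensity trend, no block, two-sided, with Benjamini-Hochberg adjustment over 19325 genes. Within a group the error comes from 2 arrays, so precision is limited by their number. The fit was tested on simulated data. There, 10.4% of log2 changes of 1 and 63.2% of log2 changes of 2 had an adjusted p under 0.05 with limma. Most changes of the size seen in the members would thus be missed at that threshold. Alternatives were a replicate block, normexp background, quantile normalization, 2 other probe filters, averaging of probes, no intensity trend, leaving out each array, and a housekeeping scaling added after the data were seen. All 32 members are named, with up to 4 genes of each other list by smallest p, and the relatives of members. Members and lists were chosen with earlier results of these data known. Promoters come from RefSeq (GRCm38.p6), matched by symbol.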

Additional observations from a re-analysis of the deposited data

Results flagged for a closer look

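Lpp was the one smooth muscle gene whose difference had opposite signs in the 2 same-numbered pairs. The female pair differed by -0.36 and the male pair by 0.03 (mutant minus control, log2 scale), with 1 array of each group in a pair. The difference between the pairs was not tested. Control replicate 1, at 2.41, stood apart from the other 3 arrays, which were 2.05 and 2.11 in the mutants and 2.08 in the other control.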

How the results depend on the processing

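The sign of all 32 members held under every alternative run. With a replicate block, 1 member, Fhl1, passed the adjusted threshold (-0.98, adjusted p = 0.0474 with limma), among 46 genes in all, and 27 members were lower at an unadjusted p under 0.05, against 7.44% of all genes. Same-numbered arrays deviated together with a correlation of 0.239, and they share a sex by Xist and Eif2s3y, but no label ties the numbers to a litter, batch or day, and there are only 2 pairs. Under the housekeeping scaling, chosen after seeing the data, the median of the members was -0.69 and that of all genes -0.17, 30 members were lower at that threshold (12.9% of all genes), and Ldb3 came to 0.04. Leaving out each array in turn gave 11 to 24 members lower at an unadjusted p under 0.05. The fewest came without mutant replicate 1 (1.86% of all genes). In these fits 0 members were higher at that threshold and 0 passed the adjusted threshold. Their median was -0.54 to -0.42, and Ldb3 stayed higher, by 0.19 to 0.28. Without overlap, 30 to 31 members were lower, but the share of all genes that did so was not computed. With 1 array left in a group, separation is easier than with 2 against 2, so the share given for all 4 arrays does not apply. The other alternatives gave 21 to 23 members lower at the unadjusted threshold, against 3.27% to 6.25% of all genes, and medians of -0.54 (quantile), -0.53 (mean of probes) and -0.46 (normexp). Among these, the calls lost were Tpm1, Flna and Pdlim7 with the mean of probes, Tagln without the filter, Tpm1, Tagln and Pdlim7 without the trend, and Jph2 with quantile normalization. Housekeeping scaling lowered every difference by the same amount, and with it the median of each other list.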
